A study of Mus musculus with 8 samples.

Results

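The responses of 2 lines of mouse bone marrow cells to 4-hydroxytamoxifen (4-OHT) were set against each other gene by gene, as the response of MATIP cells minus the response of MAflox cells. Both lines carry MLL-AF10, in which the histone methyltransferase MLL is joined to AF10 as happens in acute leukaemia, and both are labelled as strain C57BL/6. MATIP cells also carry Tip60 flox/flox alleles and Cre-ERT2, a recombinase that 4-OHT switches on. MAflox cells are labelled MLL-AF10 flox, and whether they hold Cre-ERT2, or which allele is floxed in them, is not stated. The culture medium was methylcellulose that held GM-CSF, IL-3 and SCF, and cells received 100 nM 4-OHT, or ethanol (EtOH) as its solvent, for 4 days. All 8 libraries of the series entered, 2 in each of the 4 groups, and 13722 of 24421 gene symbols had enough counts to be tested.

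Tip60, encoded by Kat5, is the catalytic subunit of a large complex that acetylates histones H4 and H2A and exchanges the histone variant H2A.Z. MLL fusions keep a set of progenitor genes active, HOXA genes and Meis1 among them, and thereby hold myeloid cells in an immature, dividing state. When such cells mature they leave the cell cycle, reduce ribosome production and switch on the granule proteins of neutrophils or the lysosomal and scavenger genes of macrophages.

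A response here is the log2 change from EtOH to 4-OHT within a line. The difference is the MATIP response minus the MAflox response, so a positive difference means a stronger rise or a weaker fall in MATIP cells. Each is given ± its standard error (SE) from 1 fit to the 8 libraries. "Rose", "fell" and "called" mean an adjusted p under 0.05 in edgeR's quasi-likelihood test, with the Benjamini-Hochberg method applied over all tested genes. Levels are CPM, a gene's count scaled to a common library size, given for both libraries of a group in the order of their replicate number, and are shares of a library and not amounts per cell. In bulk RNA, fewer cells of a type and less RNA per cell cannot be told apart.

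Library totals were 41101309 to 57312490 gene counts. The 20 most abundant genes took 7.27% to 7.4% of counts in the EtOH libraries, 11.3% to 11.7% in MAflox 4-OHT and 17% to 17.6% in MATIP 4-OHT. The myeloid markers Ptprc (263 to 696 CPM), Spi1 (165 to 379) and Mpo (1590 to 7950) were present in every library. Separate cultures or mice are not named for the libraries of a group. The p-values therefore rest only on the spread between these samples, and that spread may be technical. The lines differ in more than the Kat5 alleles. The Y-linked genes Ddx3y, Eif2s3y, Kdm5d and Uty stood at 33.2 to 108 CPM in MAflox and at 0 to 6 counts in MATIP libraries, while Xist stood at 274 to 408 CPM in MATIP and at most 0.322 CPM in MAflox. Differences due to Kat5, to Cre-ERT2, to the unnamed floxed allele of MAflox and to the origin of each line cannot be told apart in this design.

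Kat5 checked the labels. It stood at 43.7 and 41.2 CPM in MAflox EtOH, 57.5 and 62.5 in MAflox 4-OHT, 41.1 and 41.2 in MATIP EtOH, and 8.11 and 8.32 in MATIP 4-OHT. The MATIP 4-OHT pair lay below all other libraries, and the MAflox 4-OHT pair above all others. The difference of the responses was −2.82 ± 0.11 (edgeR adjusted p = 2.54e-13). Kat5 shares 426 exon bases with Rnaseh2c on the opposite strand, and the strandedness of the counting is not given in the sources used here. Reads of cells that kept an intact allele and reads of a deleted allele cannot be told apart in these counts.

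**Figure D1:**
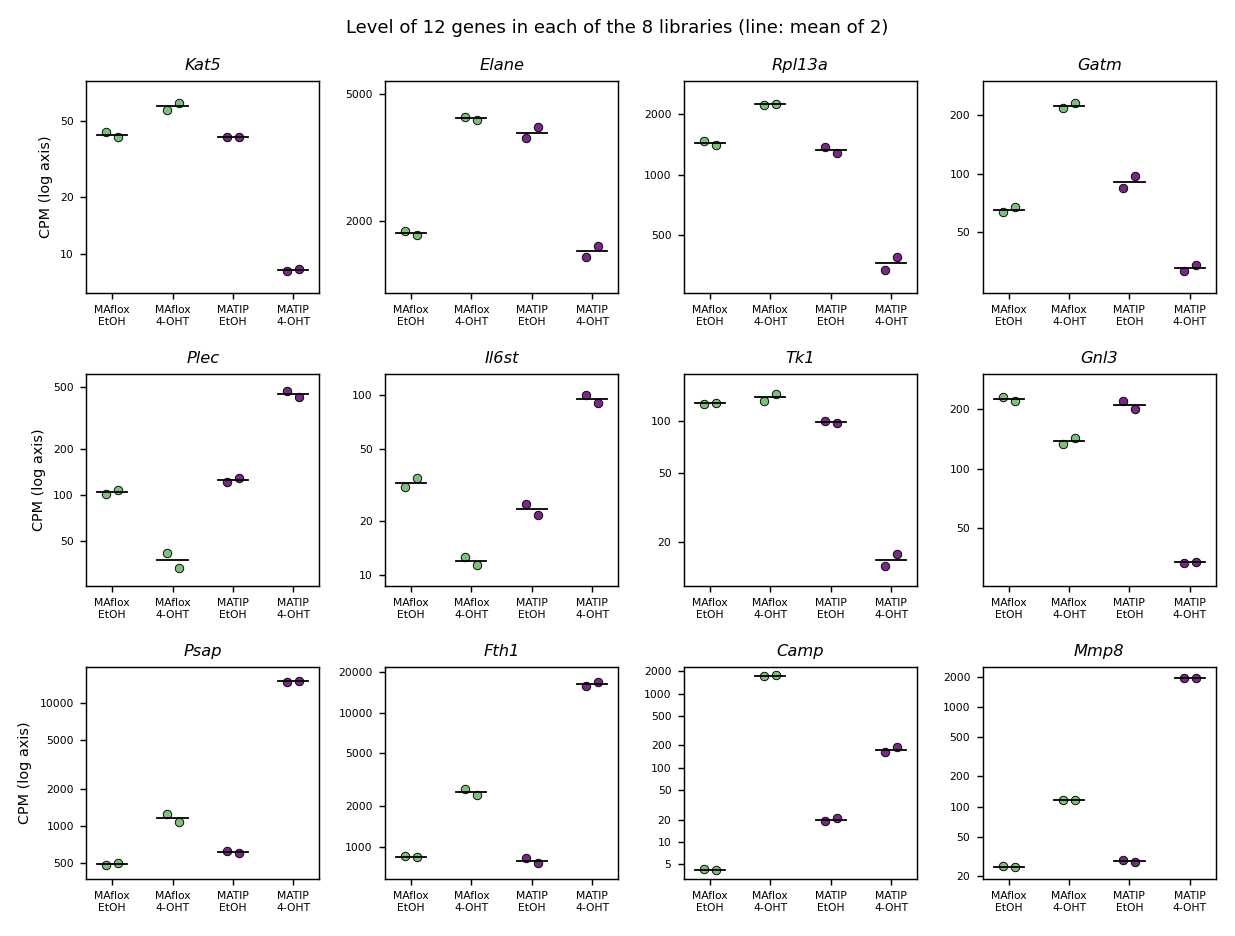
CPM of 12 genes on a log axis in each of the 8 libraries, MAflox in green and MATIP in purple, with a line at the mean of the 2 libraries of a group. Kat5, Elane, Rpl13a and Gatm went up in MAflox and down in MATIP cells with 4-OHT, Plec and Il6st the other way, Psap, Fth1 and Mmp8 rose further in MATIP cells, and Camp rose further in MAflox cells.

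Most of the tested transcriptome responded differently in the 2 lines. The difference was called for 8491 of 13722 genes (61.9%), 3883 with a positive difference (28.3%) and 4608 with a negative one (33.6%). Of these, 3602 differed at least 2-fold (26.2%), 2043 of them upward in MATIP (14.9%) and 1559 downward (11.4%). The median over all tested genes was 0.02 for the MAflox response, 0.00 for the MATIP response and −0.03 for the difference. Scaling by upper quartile factors moved that last median to 0.10 and the share of positive calls from 45.7% to 53.5%, so small differences of either sign depend on the scaling.

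Within MAflox, 65.2% of tested genes responded, 33.1% upward and 32.1% downward, and within MATIP 76.1%, 37.5% upward and 38.6% downward. The 2 responses often had opposite signs. In 949 genes (6.92% of those tested) expression rose in MAflox and fell in MATIP cells, and in 708 genes (5.16%) it fell in MAflox and rose in MATIP cells. The median responses of the first class were 0.41 in MAflox and −0.61 in MATIP, and those of the second −0.65 and 0.66. Few turned strongly both ways: 161 and 262 genes moved at least 1.5-fold in both lines, and 39 and 106 at least 2-fold. In the authors' deposited table, 765 of the 949 (80.6%) and 553 of the 708 (78.1%) were also called in opposite directions.

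Genes that moved in 1 direction made up most of the rest. The largest class, 1349 genes (9.83%), fell in both lines and further in MATIP, with medians of −0.48 and −1.22. A further 1001 genes (7.29%) rose in both and further in MATIP, with medians of 1.04 and 2.44. Smaller classes rose in both and further in MAflox (549 genes, 4.0%, medians 1.31 and 0.64) or fell in both and further in MAflox (523 genes, 3.81%, medians −1.09 and −0.48). In 1141 genes (8.32%) only the MATIP response was called and was a fall, and in 1010 (7.36%) it was a rise. In 596 (4.34%) only the MAflox response was called and was a fall, and in 582 (4.24%) it was a rise. The remaining 83 genes (0.605%) had a called difference and no called response, and for 5231 (38.1%) no difference was called. List counts below stand against the shares of all tested genes: 61.9% called, 28.3% with a positive and 33.6% with a negative difference. Counts of turned members stand against 6.92% from a rise to a fall and 5.16% from a fall to a rise.

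**Figure D2:**
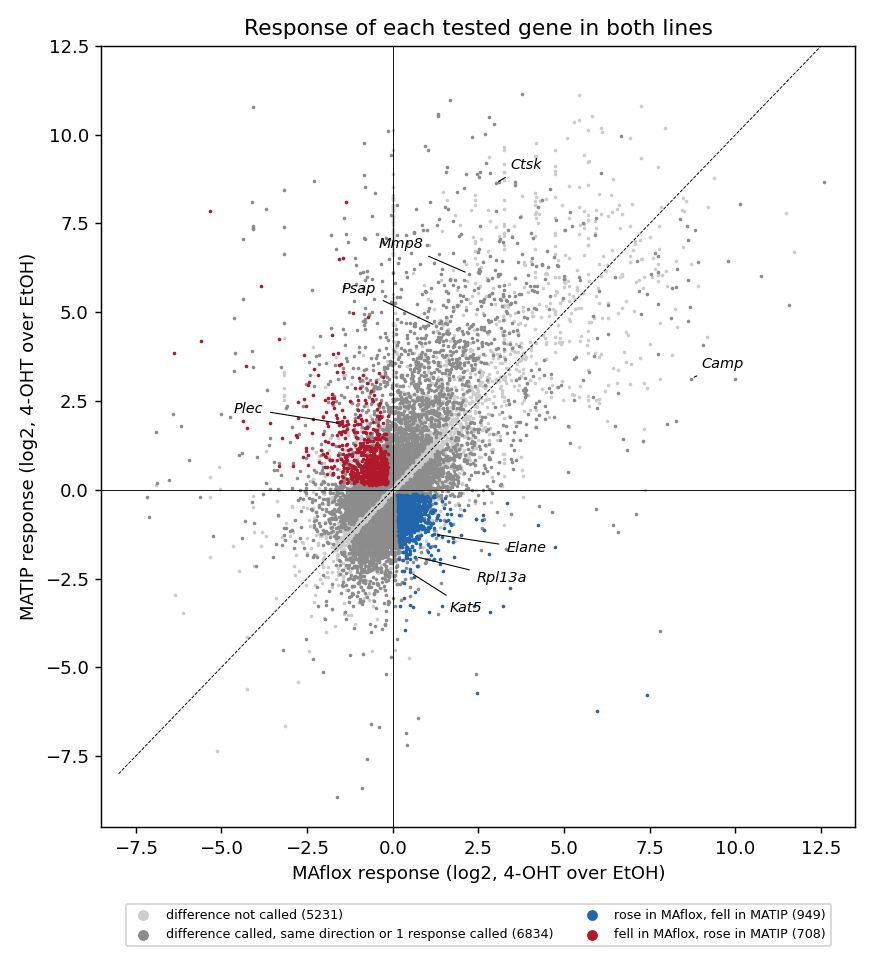
Each point is 1 of the 13722 tested genes, with the MAflox response on the x axis and the MATIP response on the y axis, both as log2 of 4-OHT over EtOH, and the dashed line marks equal responses. The 949 blue genes rose in MAflox and fell in MATIP, and the 708 red genes did the reverse. Genes with few counts in a group have uncertain positions far from the centre.

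Fewer genes were called apart between the lines before treatment than after it. In EtOH, MATIP differed from MAflox in 4388 genes (32.0%), and in 4-OHT in 10365 (75.5%). Of the 8491 genes with a called difference, 5149 (60.6%) were apart only in 4-OHT, 1852 (21.8%) were apart in both conditions on the same side, and 889 (10.5%) changed sides. A further 445 (5.24%) were apart only in EtOH and thus closer to each other after treatment, and 156 (1.84%) in neither. The share already apart in EtOH ran from 24.0% of genes that only fell in MATIP to 53% of those that rose in both and further in MATIP.

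**Figure D3:**
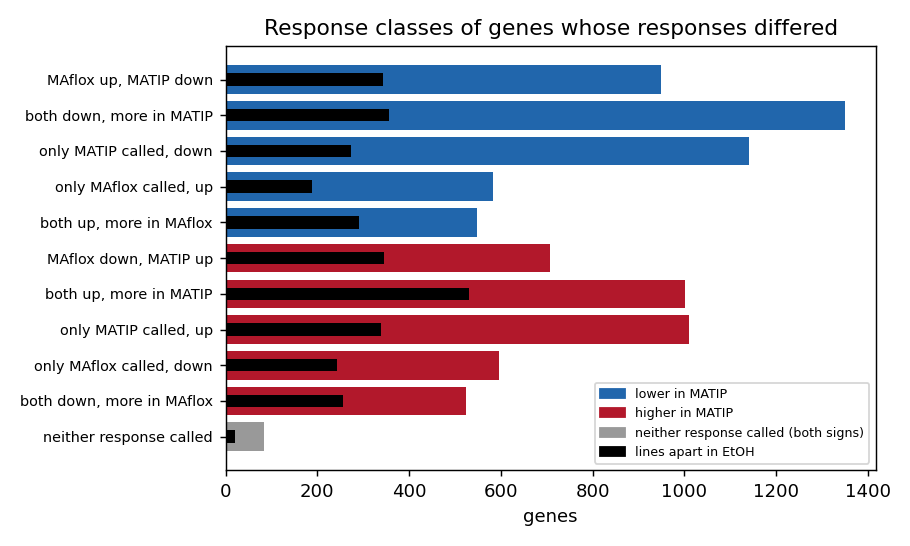
Number of genes in each of 11 response classes among the 8491 genes with a called difference, blue where the difference is negative, red where it is positive and grey where neither response was called. Black bars count the genes of a class in which the lines were already apart in EtOH, such as 344 of the 949 that rose in MAflox and fell in MATIP.

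Transcript length moved with the difference. From the shortest to the longest of 5 equal groups of genes (56 to 1848 and 5125 to 123179 bases), the median difference ran from −0.42 to 0.47. The MAflox response carried most of this, from 0.31 to −0.37, against −0.03 to 0.09 in MATIP. A fit with the trend on length and GC content removed called 8239 differences, 7181 of them shared. In it 861 and 545 genes turned direction, of which 1102 were among the genes that turned in the fit reported. Values from it stand beside some of the results below and not beside all that it moved. Among those given without them, the differences of Ahnak (5.61), Col5a3 (5.91), Il6st (3.47) and S100a8 (−2.53) were 4.35, 5.15, 2.86 and −1.87 in that fit. Some grew instead, such as that of Clec4d (3.33), which was 3.98.

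Genes of protein synthesis gave the most uniform turn from a rise in MAflox to a fall in MATIP. Cytosolic ribosomal proteins, the protein parts of the ribosome, rose in 61 of 71 tested members in MAflox, and all 71 fell in MATIP. The difference was called by edgeR in 70 of the 71, all negative (0 positive by DESeq2 also, and 0 at an unadjusted p under 0.05), with medians of 0.39 in MAflox, −1.05 in MATIP and −1.47 for the difference. With the length and GC trend removed, the same 70 to 0 split was found, the medians were 0.13, −1.0 and −1.19, and 37 in place of 61 members turned direction. The summed level of the list went from 63600 to 65700 CPM in the MAflox EtOH libraries to 84800 to 86600 with 4-OHT, and from 56800 to 60300 to 28100 to 30900 CPM in MATIP.

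Rpl13a stood at 1470 and 1400 CPM in MAflox EtOH, 2240 and 2260 in MAflox 4-OHT, 1370 and 1280 in MATIP EtOH, and 333 and 388 in MATIP 4-OHT. The EtOH libraries of both lines lay close together and the 4-OHT libraries on either side of them. Its difference was −2.53 ± 0.09 (edgeR adjusted p = 1.12e-13), and the next smallest p-values belonged to Rps18 (−2.31 ± 0.09), Rpl17 (−2.02 ± 0.08) and Rpl10a (−1.79 ± 0.08). Rps18 went from 1030 and 1010 to 1780 and 1750 CPM in MAflox, and from 929 and 851 to 289 and 332 in MATIP. Processed copies of many ribosomal protein genes exist, and the treatment of reads that fit several of them is unknown, so single members are uncertain.

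The promoter of Rps18 is shown as a member of this list with 2 copies of a short motif. RefSeq gave a stretch from 250 bases before to 50 after the annotated start for 10391 of the tested genes (75.7%). CCGGAAG, the core bound by ETS-family factors, was searched on both strands. It was found in 19 of 51 matched ribosomal protein genes (37.3%), against 17.6% of all matched genes, 10.2% of those at least 2-fold higher in the difference and 16.9% of those at least 2-fold lower. It was also common in ribosome biogenesis (34.9%) and S phase genes (30%), and in 21.8% of the genes that rose in MAflox and fell in MATIP. The 250 bases before the start of Rps18, on GRCm38.p6 at chr17:33955666-33955915 on the minus strand, hold 2 matches, in capitals. A match of letters is a description and not a measured binding site.
Rps18: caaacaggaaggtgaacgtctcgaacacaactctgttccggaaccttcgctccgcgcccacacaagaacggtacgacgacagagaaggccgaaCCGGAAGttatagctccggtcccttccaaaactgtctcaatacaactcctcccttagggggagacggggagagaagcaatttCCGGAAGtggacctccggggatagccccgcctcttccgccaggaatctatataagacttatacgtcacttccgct

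Mitochondrial partners followed less evenly. Of 67 mitochondrial ribosomal proteins 50 had a negative difference and 1 a positive one (median −0.58). With the length and GC trend removed, 40 were lower and 5 higher, and without MATIP EtOH replicate 1 the count of higher ones was 2. The list was led by Mrpl19 (−1.52 ± 0.08) and Mrpl17 (−1.81 ± 0.10). Of 56 subunits of the respiratory chain and ATP synthase, 42 were lower and 2 higher, with medians of 0.23 in MAflox and −0.22 in MATIP, and 15 turned direction. With the length and GC trend removed, 31 were lower and 10 higher, the median difference was −0.21 in place of −0.58, and 5 turned. Uqcrh, a small subunit of complex III, then had a difference of −0.53 in place of −1.03. Of 31 proteasome subunits 26 were lower and 0 higher by edgeR, with 1 higher at an unadjusted p under 0.05 and 2 higher by DESeq2 or with the trend removed. The median difference was −0.78, or −0.43 with the trend removed, and 10 subunits turned from a rise to a fall, or 2 with the trend removed. Psma7, a core subunit, stood at 294 and 291 CPM in MAflox EtOH, 305 and 315 in MAflox 4-OHT, 262 and 254 in MATIP EtOH, and 104 and 105 in MATIP 4-OHT, so that the MATIP 4-OHT pair lay far below the other 6 libraries (−1.39 ± 0.08).

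Among glycolysis genes the difference was negative in 17 of 22 tested members and positive in 0 by edgeR (DESeq2 called 16 and 0, and 0 were positive at an unadjusted p under 0.05), with medians of 0.33 in MAflox, −0.44 in MATIP and −0.80 for the difference, and 7 members turned direction, or 5 with DESeq2. Pgk1, phosphoglycerate kinase, stood at 892 and 1040 CPM in MAflox EtOH and 2600 and 2660 in MAflox 4-OHT, against 641 and 856 and then 592 and 614 in MATIP. Its MATIP fall of 0.31 ± 0.09 was small beside the MAflox rise of 1.45 ± 0.09. Triosephosphate isomerase, Tpi1, parted further, from 1000 and 1120 to 1390 and 1420 CPM in MAflox and from 807 and 1020 to 243 and 255 in MATIP (difference −2.28 ± 0.12). Aldoc, an aldolase, rose by 2.89 ± 0.14 in MAflox and had −0.10 ± 0.15 in MATIP. Pdk1, which holds pyruvate dehydrogenase off, differed by −1.54 ± 0.12.

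Primary granule genes, made at the promyelocyte stage, split along the same line. Of 15 tested members 12 had a negative difference and 3 a positive one (medians 0.39 in MAflox, −0.56 in MATIP, −1.03 for the difference), and 5 turned from a rise to a fall, or 3 with the length and GC trend removed. Elane, neutrophil elastase, stood at 1850 and 1800 CPM in MAflox EtOH, 4240 and 4160 in MAflox 4-OHT, 3640 and 3940 in MATIP EtOH, and 1540 and 1660 in MATIP 4-OHT. The lines thus crossed: MATIP was the higher one in EtOH (1.06 on the log2 scale) and the lower one in 4-OHT. The difference was −2.45 ± 0.08 (edgeR adjusted p = 2.95e-14). Prss57, a serine protease of the same granules, went from 60.8 and 58.3 to 141 and 133 CPM in MAflox and from 46.8 and 50.6 to 13.7 and 11.4 in MATIP (−3.16 ± 0.11). Cst7, cystatin F, differed by −2.10 ± 0.09. The rise in MAflox was not general: of the 15 members 10 rose and 2 fell there, and 6 rose and 8 fell in MATIP. Mpo, myeloperoxidase, went down in both lines, from 4710 and 4630 to 1700 and 1730 CPM in MAflox and from 7870 and 7950 to 1590 and 1690 in MATIP. Cebpe, a transcription factor of granule genes, rose by 2.74 ± 0.08 in MAflox, from 60.0 and 65.1 to 404 and 436 CPM, and went from 48.7 and 56.5 to 53.7 and 58.9 in MATIP (difference −2.65 ± 0.11).

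Beyond these lists, the genes that turned most strongly from a rise to a fall were taken by the size of the smaller of their 2 responses. Fam69b, a kinase-like protein of the endoplasmic reticulum, led. It stood at 22.8 and 17.9 CPM in MAflox EtOH, 56.1 and 56.8 in MAflox 4-OHT, 26.5 and 26.3 in MATIP EtOH, and 5.57 and 5.15 in MATIP 4-OHT. Gatm, the first enzyme of creatine synthesis, was next. Its levels were 63.5 and 67.3, 216 and 229, 84.5 and 97.3, and 31.9 and 34 CPM in the same order. In both genes the treated groups of the 2 lines lay on opposite sides of all 4 EtOH libraries. Tmem119 (1.62 ± 0.09 in MAflox and −1.44 ± 0.10 in MATIP), Slc28a2, a nucleoside transporter (1.98 ± 0.11 and −1.27 ± 0.12), and Ndrg2 (1.15 ± 0.08 and −1.26 ± 0.09) had the same shape. Cdkn3, a phosphatase of cyclin-dependent kinases, had 1.09 ± 0.09 and −1.60 ± 0.10.

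Cth, cystathionine gamma-lyase of cysteine synthesis, stood at 4.13 and 3.48 CPM in MAflox EtOH and 12 and 17.6 in MATIP EtOH, and at 9.83 and 7.85 against 5.29 and 4.60 after 4-OHT. Ces1d, a carboxylesterase, went from 2.82 and 3.06 to 17.7 and 19.7 CPM in MAflox and from 15.0 and 14.3 to 6.64 and 6.73 in MATIP. Of the 12 strongest turns from a rise to a fall, these 2 genes and Ankrd37 had started furthest apart in EtOH. Smaller log2 differences between the lines in EtOH were also called for Elane (1.06), Tmem119 (0.58), Slc28a2 (0.48) and Gatm (0.47). The same held for Ndrg2 (0.44), Fam69b (0.38) and Prss57 (−0.29), and not for Cdkn3 (0.22). Ankrd37 was lower in MATIP EtOH (3.72 and 4.42 CPM against 11.6 and 15.8), and its responses were 1.44 ± 0.14 in MAflox and −1.33 ± 0.21 in MATIP. Prelid2, with no called difference between the lines in EtOH, had 1.63 ± 0.25 and −1.16 ± 0.29, and its MATIP fall was not called without MATIP EtOH replicate 2 (−0.54, edgeR adjusted p = 0.0846).

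Genes that fell in MAflox and rose in MATIP included membrane transporters, cytoskeletal linkers and receptors. Atp13a2, a lysosomal polyamine transporter, stood at 54.2 and 55.0 CPM in MAflox EtOH, 20.5 and 16.3 in MAflox 4-OHT, 55.8 and 53.6 in MATIP EtOH, and 208 and 200 in MATIP 4-OHT. The lines were level in EtOH and separated about the shared start, with a difference of 3.47 ± 0.11 (edgeR adjusted p = 2.92e-14). Il6st, the gp130 receptor shared by the interleukin-6 family, had the same difference (3.47 ± 0.13), from 30.7 and 34.4 to 12.6 and 11.4 CPM in MAflox and from 24.7 and 21.7 to 100 and 90.1 in MATIP. Sdc1, a heparan sulfate proteoglycan, had responses of −1.40 ± 0.11 and 1.65 ± 0.11, and Lamc1, a laminin chain, −1.90 ± 0.11 and 1.34 ± 0.10. Ano8 (−1.5 ± 0.19 and 1.62 ± 0.16), Zeb2, a zinc-finger transcription factor (−1.49 ± 0.08 and 1.15 ± 0.08), and Dock10, a guanine nucleotide exchange factor (−1.14 ± 0.07 and 1.64 ± 0.07), followed.

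Several of these have very long transcripts. Plec, plectin of the cytoskeleton, stood at 101 and 108 CPM in MAflox EtOH, 41.7 and 33.3 in MAflox 4-OHT, 121 and 128 in MATIP EtOH, and 471 and 432 in MATIP 4-OHT (difference 3.34 ± 0.11). With the length and GC trend removed its difference was 1.83 and its MAflox response −0.48. Under that fit the differences of Notch2, a receptor of cell fate (2.22 ± 0.13), Dync2h1, a dynein heavy chain (2.37 ± 0.16), Itsn1, an endocytic scaffold (2.95 ± 0.19), and Dst, dystonin (2.83 ± 0.18), were 1.32, 1.47, 1.85 and 1.28. The MAflox falls of Dst (−0.21, adjusted p = 0.190) and Itsn1 (−0.35, adjusted p = 0.0521) were then not called, so these 2 did not turn in that edgeR fit.

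Adhesion and progenitor genes supplied more turns of this kind. Of 19 tested integrins and partners 11 were higher and 4 lower in the difference (medians −0.14 in MAflox and 0.49 in MATIP), and 6 turned from a fall to a rise. Itga6 went from 80.5 and 93.4 to 66.2 and 65.7 CPM in MAflox and from 46.5 and 47.2 to 108 and 109 in MATIP (difference 1.61 ± 0.10), crossing over between the lines. Itgb7 had started far apart, at 42.3 and 50.7 CPM in MAflox EtOH and 5.92 and 8.94 in MATIP EtOH, and ended at 40.6 and 30.3 against 72.7 and 75.7 (3.69 ± 0.20). Of 24 stem and progenitor genes 13 were higher and 4 lower, with medians of −1.02 in MAflox, 0.17 in MATIP and 1.16 for the difference, and 5 turned upward. Cd93 stood at 310 and 337 CPM in MAflox EtOH, 235 and 213 in MAflox 4-OHT, 251 and 266 in MATIP EtOH, and 859 and 813 in MATIP 4-OHT (2.23 ± 0.09). Prom1, the CD133 membrane protein, moved against the list. It rose from 12.4 and 12.8 to 107 and 117 CPM in MAflox and went from 47.7 and 49.5 to 52.1 and 57.6 in MATIP (difference −2.97 ± 0.11).

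Targets of MLL fusions fell in 28 of 30 tested members in MAflox and in 20 in MATIP. The difference was positive in 17 and negative in 3, with medians of −1.55, −1.18 and 0.92. Of the 17, 9 fell in both lines and less in MATIP, and 4 turned to a rise there. Eya1, a transcriptional co-activator, stood at 46.4 and 51.0 CPM in MAflox EtOH, 9.93 and 8.96 in MAflox 4-OHT, 52.8 and 54.0 in MATIP EtOH, and 43.2 and 41.4 in MATIP 4-OHT. Only its MAflox 4-OHT pair lay far from the rest (difference 2.03 ± 0.12). Runx2 (1.59 ± 0.10), a RUNX-family transcription factor, went from 78.4 and 77.7 to 25.6 and 24.4 CPM in MAflox and from 72.5 and 71.5 to 72.8 and 66.5 in MATIP. Myb, a transcription factor that keeps progenitors dividing, was 1 of the 3 with a negative difference: 514 and 529 to 331 and 339 CPM in MAflox and 593 and 600 to 126 and 126 in MATIP (−1.6 ± 0.07). The HOXA genes, named here after their values were seen, had small differences: Hoxa9 −0.23, Hoxa10 −0.38, and no called difference for Hoxa5, Hoxa6 and Hoxa7.

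**Figure D4:**
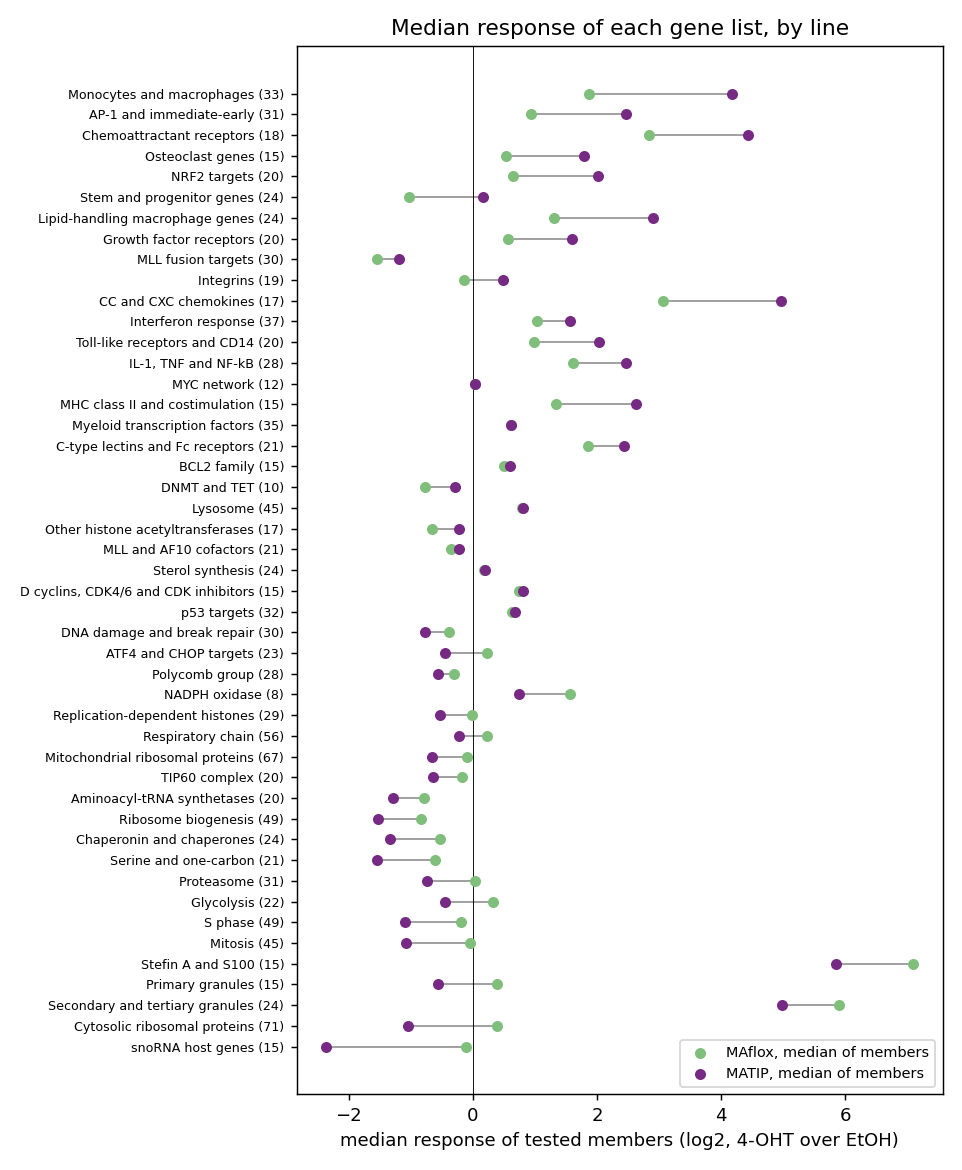
Median log2 response of the tested members of 47 gene lists, with the number of members tested in parentheses, in MAflox (green) and MATIP (purple), ordered by the median difference. The ribosomal protein, primary granule and glycolysis lists have a positive median in MAflox and a negative one in MATIP, and the integrin and stem and progenitor lists the reverse.

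Most genes of the dividing cell fell further in MATIP than in MAflox cells. Of 49 tested S phase genes 44 had a negative difference and 4 a positive one (medians −0.19 in MAflox, −1.09 in MATIP and −0.88 for the difference). Of 45 mitotic genes 40 were lower and 3 higher (−0.05, −1.08 and −0.96), and 10 turned from a rise to a fall. Tk1, thymidine kinase of S phase, stood at 125 and 128 CPM in MAflox EtOH, 131 and 144 in MAflox 4-OHT, 99.9 and 97.0 in MATIP EtOH, and 14.5 and 17.0 in MATIP 4-OHT. The MATIP 4-OHT pair lay far below the other 6 libraries, and the difference was −2.76 ± 0.10. Dut, which clears dUTP (−2.01 ± 0.09), and the helicase subunits Mcm2 (−1.31 ± 0.07) and Mcm7 (−1.29 ± 0.08) followed. With the length and GC trend removed, 0 in place of 6 S phase genes turned direction, 43 were lower and 0 higher. Without MAflox EtOH replicate 1 the count of higher S phase genes was 2.

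Ccnb2, a B-type cyclin, went from 133 and 140 to 190 and 196 CPM in MAflox and from 131 and 138 to 40.4 and 40.7 in MATIP (difference −2.23 ± 0.08). Cenpa, the centromeric histone, had responses of 0.55 ± 0.06 and −1.62 ± 0.06. Ube2c, the ubiquitin carrier of the anaphase-promoting complex, had no called response in MAflox (172 and 160 to 179 and 167 CPM) and fell in MATIP (207 and 194 to 38.4 and 37.3), a difference of −2.46 ± 0.09. Among promoters of the mitotic list CCAAT, the motif bound by NF-Y, was present on either strand in 29 of 37 matched genes (78.4%), against 38.8% of all matched genes.

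D-type cyclins, their kinases and inhibitors had no common direction, with 5 higher and 6 lower of 15 (median −0.02, which was 0.11 with upper quartile factors and −0.34 with the length and GC trend removed). Cdk4 stood at 532 and 524 CPM in MAflox EtOH, 349 and 350 in MAflox 4-OHT, 421 and 422 in MATIP EtOH, and 75.2 and 78.2 in MATIP 4-OHT (−1.86 ± 0.07). Its inhibitor Cdkn2c fell further in MAflox, from 168 and 160 to 44.3 and 41.4 CPM, than in MATIP, from 193 and 184 to 122 and 129 (1.35 ± 0.09). Ccnd1 rose from 1.91 and 1.88 to 21.2 and 21.9 CPM in MATIP, against 1.86 and 1.5 to 3.11 and 2.56 in MAflox (2.75 ± 0.25). Replication-dependent histone genes had few counts, and the sign of their median varied with the library left out (−0.51, or 0.29 without MATIP EtOH replicate 2). Of 29 tested 5 were higher, led by Hist1h2bc (3.99 ± 0.21) and Hist1h1c (2.46 ± 0.15), and 3 lower, such as Hist1h2ag (−1.39 ± 0.23). DNA repair genes split 7 higher and 11 lower of 30, or 3 and 18 with the length and GC trend removed, with Xrcc6, the Ku70 subunit, at −1.22 ± 0.09. Without MAflox EtOH replicate 1 the count of higher repair genes was 4, and without replicate 2 of that group it was 3.

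Genes of ribosome production fell in both lines, most of them further in MATIP. All 49 tested genes of ribosome biogenesis fell in each line, and the difference was negative in 39 and positive in 3 (medians −0.84, −1.52 and −0.73). The count of 3 was 1 without MATIP EtOH replicate 2 or MAflox EtOH replicate 2, and 1 with the length and GC trend removed. Gnl3, nucleostemin of the nucleolus, stood at 231 and 219 CPM in MAflox EtOH, 133 and 143 in MAflox 4-OHT, 219 and 199 in MATIP EtOH, and 33.3 and 33.9 in MATIP 4-OHT. Both treated pairs lay below both EtOH pairs, with MATIP lower (difference −1.93 ± 0.09). Nop56, of the box C/D small nucleolar particle, differed by −1.66 ± 0.08. Host genes of small nucleolar RNAs had the most negative median of any list: 14 of 15 were lower and 0 higher by edgeR (13 and 0 by DESeq2, and 0 higher at an unadjusted p under 0.05), with −0.11 in MAflox, −2.36 in MATIP and −2.22 for the difference. Gas5, such a host, went from 200 and 178 to 183 and 185 CPM in MAflox and from 181 and 161 to 42.6 and 43.4 in MATIP.

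Folding, tRNA charging and serine synthesis followed the same order. Of 24 chaperonin and chaperone genes, all of which fell in both lines, 23 had a negative difference and 1 a positive one (median −0.75), with Tcp1 going from 707 and 689 to 555 and 578 CPM in MAflox and from 625 and 599 to 184 and 190 in MATIP. Of 20 aminoacyl-tRNA synthetases 18 were lower and 0 higher by edgeR (17 and 0 by DESeq2, 1 higher with upper quartile factors, and 0 higher at an unadjusted p under 0.05), with a median of −0.66, led by Mars, which charges methionine (−1.5 ± 0.08). Of 21 serine and one-carbon genes 14 were lower and 3 higher (median −0.75). Phgdh, the first enzyme of serine synthesis, stood at 455 and 453 CPM in MAflox EtOH, 347 and 365 in MAflox 4-OHT, 428 and 434 in MATIP EtOH, and 83 and 94.2 in MATIP 4-OHT (−1.93 ± 0.09). The MATIP 4-OHT pair was again the lowest. Targets of ATF4 and CHOP, the integrated stress factors, went both ways, 7 higher and 11 lower of 23, with 6 turning from a rise to a fall. Asns, asparagine synthetase, rose by 0.43 ± 0.06 in MAflox and fell by 0.96 ± 0.06 in MATIP, while Slc7a11, the cystine transporter, rose from 24.8 and 26.6 to 491 and 458 CPM in MATIP and from 16.3 and 20.2 to 52.9 and 53.7 in MAflox (2.67 ± 0.11).

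Of 33 tested macrophage genes 24 rose in both lines and further in MATIP. In all, 25 had a positive difference and 3 a negative one (medians 1.87, 4.18 and 1.81). Cd68, a scavenger receptor of macrophage lysosomes, stood at 41.9 and 46.6 CPM in MAflox EtOH, 104 and 86.5 in MAflox 4-OHT, 32.7 and 31.1 in MATIP EtOH, and 488 and 491 in MATIP 4-OHT (2.84 ± 0.11). Both treated pairs lay above both EtOH pairs, with MATIP higher. Fn1, fibronectin, parted more, from 9.88 and 9.08 to 14.8 and 12 CPM in MAflox and from 8.26 and 9.33 to 211 and 179 in MATIP (3.96 ± 0.15). Spp1, osteopontin, reached 8080 and 8510 CPM in MATIP against 524 and 480 in MAflox (2.78 ± 0.10).

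Of 24 lipid-handling genes 18 were higher and 2 lower (median 1.14). Abcg1, a cholesterol exporter, stood at 19.6 and 21.4 CPM in MAflox EtOH, 89.4 and 80.9 in MAflox 4-OHT, 29.8 and 27.9 in MATIP EtOH, and 1270 and 1240 in MATIP 4-OHT (3.40 ± 0.10). Npc1, which moves cholesterol out of lysosomes, fell slightly in MAflox (49.8 and 51.0 to 47.4 and 43.5 CPM) and rose in MATIP (70.5 and 71.7 to 312 and 292). Of 15 osteoclast genes 9 were higher and 0 lower by edgeR (also by DESeq2 and at an unadjusted p under 0.05, and 1 lower with the length and GC trend removed), with a median of 1.3. Among them were Atp6v0d2, a proton pump subunit (2.13 ± 0.17), and Itgb3 (2.29 ± 0.15). Ctsk, cathepsin K, was among the 12 largest positive differences, at 0.454 and 0.494, then 3.91 and 3.73 CPM in MAflox, and 0.913 and 0.486, then 256 and 281 CPM in MATIP (5.63 ± 0.39).

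The lysosome list itself split. Of 45 tested genes 23 were higher and 13 lower (median 0.26, range −1.31 to 3.36), and with upper quartile factors 23 and 8. Psap, the precursor of the saposins that help break down sphingolipids, stood at 483 and 494 CPM in MAflox EtOH, 1260 and 1080 in MAflox 4-OHT, 620 and 601 in MATIP EtOH, and 14900 and 15200 in MATIP 4-OHT. That pair lay far above every other library, and the difference was 3.36 ± 0.09 (edgeR adjusted p = 3.34e-15). Ctsd, cathepsin D, reached 12900 and 13400 CPM in MATIP and 1960 and 1870 in MAflox (2.26 ± 0.07), and Ctsb 2920 and 2990 against 555 and 556 (1.81 ± 0.07). On the other side was Neu1 (−1.31), named after its values were seen, which rose in both lines and less in MATIP.

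CACGTG, the E-box bound by MYC and by TFEB-family factors, was searched on both strands of the promoters. It was present in 9 of 33 matched lysosome genes (27.3%), against 9.99% of all matched genes, 8.55% of those at least 2-fold higher in the difference and 10.8% of those at least 2-fold lower. It was also present in 10 of 43 ribosome biogenesis genes (23.3%), a list whose called differences were mostly negative. The longer TCACGTGA, which contains it, was present in 5 of the 33 (15.2%) and in 1.91% of all. The Ctsd promoter is shown as the list's member with 2 matches and a large difference. Its 250 bases before the start lie on GRCm38.p6 at chr7:142387828-142388077 on the minus strand, and capitals mark CACGTG.
Ctsd: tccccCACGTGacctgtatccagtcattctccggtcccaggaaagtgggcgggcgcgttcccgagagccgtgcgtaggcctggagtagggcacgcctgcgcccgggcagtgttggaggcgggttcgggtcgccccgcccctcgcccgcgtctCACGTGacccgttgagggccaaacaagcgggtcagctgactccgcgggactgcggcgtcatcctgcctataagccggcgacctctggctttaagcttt

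Antioxidant genes rose further in MATIP. Of 20 tested targets of NRF2, the factor that answers oxidative stress, 15 were higher and 3 lower in the difference (medians 0.64, 2.01 and 1.25). Fth1, the ferritin heavy chain that stores iron, stood at 852 and 834 CPM in MAflox EtOH, 2710 and 2430 in MAflox 4-OHT, 825 and 750 in MATIP EtOH, and 15800 and 16900 in MATIP 4-OHT (2.77 ± 0.09). Its EtOH levels were alike in the 2 lines, and both treated pairs rose. Prdx1, a peroxiredoxin, had no called response in MAflox (335 and 325 to 291 and 314 CPM) and rose in MATIP from 259 and 241 to 1210 and 1330 (2.47 ± 0.09). Nqo1, a quinone reductase, had started lower in MATIP EtOH, at 4.89 and 5.34 against 17.0 and 18.7 CPM, and ended higher, at 167 and 178 against 76.2 and 80.1 (2.94 ± 0.11).

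Srxn1, sulfiredoxin, which repairs peroxiredoxins, went from 31.3 and 32.4 to 41.3 and 40.5 CPM in MAflox and from 29.7 and 31.9 to 254 and 261 in MATIP (2.70 ± 0.09). Its promoter is shown because it holds TGANTCA, the AP-1 motif that also lies within many antioxidant response elements, at 2 places. On either strand this motif was present in 4 of 17 matched NRF2 targets (23.5%), against 5.30% of all matched genes, 7.25% of those at least 2-fold higher in the difference and 5.99% of those at least 2-fold lower. The stretch lies on GRCm38.p6 at chr2:152105274-152105523 on the plus strand, with the motif in capitals.
Srxn1: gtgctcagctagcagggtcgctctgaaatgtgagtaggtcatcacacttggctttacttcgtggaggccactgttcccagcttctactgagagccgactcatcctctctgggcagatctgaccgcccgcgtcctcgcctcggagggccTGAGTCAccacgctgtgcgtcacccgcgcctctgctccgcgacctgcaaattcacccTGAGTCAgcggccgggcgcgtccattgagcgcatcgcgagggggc

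Signalling genes of inflammation and immediate-early response moved the same way. Of 31 AP-1 and immediate-early genes 23 were higher and 3 lower (medians 0.94, 2.47 and 1.61). Dusp5, a phosphatase of ERK, stood at 9.56 and 11.2 CPM in MAflox EtOH, 9.19 and 9.19 in MAflox 4-OHT, 5.65 and 5.29 in MATIP EtOH, and 50.8 and 48.9 in MATIP 4-OHT (3.37 ± 0.15). Only the MATIP 4-OHT pair rose above the other libraries. Zfp36, which speeds decay of cytokine messages, differed by 2.21 ± 0.11 and Klf6 by 1.82 ± 0.09. Of 28 IL-1, TNF and NF-kB genes 16 were higher and 5 lower (median 0.61), and they parted within 1 pathway: Nlrp3, an inflammasome sensor, went from 5.39 and 5.36 to 50.8 and 51.5 CPM in MATIP and from 5.09 and 5.19 to 4.65 and 4.08 in MAflox (3.48 ± 0.16). Gsdmd, the pore former that inflammasomes cleave, rose by 1.18 ± 0.07 in MAflox and fell by 0.94 ± 0.07 in MATIP.

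Chemokines and receptors of innate immunity had more positive than negative differences. Of 17 tested chemokines 8 were higher and 2 lower (median 0.76, or 1.39 without 4 members with 3 or fewer counts in a group). Their called share of 58.8% lay below the 61.9% of all tested genes. The 2 lower ones became 0 without MATIP EtOH replicate 2 and 1 without either MAflox EtOH library. Ccl3 stood at 10.7 and 10.9 CPM in MAflox EtOH, 38.3 and 36.5 in MAflox 4-OHT, 28.5 and 28.9 in MATIP EtOH, and 463 and 485 in MATIP 4-OHT (2.26 ± 0.09). Of 18 chemoattractant receptors 8 were higher and 3 lower (median 1.33, 61.1% called), with Ccr1 at 2.01 ± 0.11 and Ltb4r1, a leukotriene B4 receptor of neutrophils, at −2.47 ± 0.19. Of 20 Toll-like receptor genes 10 were higher and 6 lower (median 0.67), the 6 becoming 3 without MATIP 4-OHT replicate 2. Tlr13, a sensor of bacterial ribosomal RNA, reached 293 and 284 CPM in MATIP and 27.7 and 31.6 in MAflox (2.37 ± 0.16).

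Presentation, lectin and interferon genes were mixed. Of 15 MHC class II and costimulation genes 6 were higher and 2 lower (median 0.37, 53.3% called), with Cd74, the invariant chain, at 101 and 109 CPM in MATIP 4-OHT and 20.1 and 18.4 in MAflox 4-OHT (2.09 ± 0.14). C-type lectins and Fc receptors split 9 and 6 of 21 (median 0.35, or 0.54 with the length and GC trend removed): Clec4d rose from 15.0 and 13.4 to 362 and 394 CPM in MATIP (3.33 ± 0.11), while Mgl2 fell from 162 and 156 to 21.5 and 22.6 (−2.39 ± 0.10). Of 37 interferon response genes 17 were higher and 8 lower (median 0.69, or 0.38 without 4 members with 3 or fewer counts in a group). Irf8, a factor of monocyte and dendritic fate, fell by 1.06 ± 0.08 in MAflox and rose by 0.30 ± 0.08 in MATIP. Sp100 rose in MAflox, from 63.2 and 71.5 to 148 and 150 CPM, and stood at 58.8 and 60.9, then 62.7 and 61.4 in MATIP (−1.09 ± 0.09). Of 20 growth factor receptor genes 12 were higher and 3 lower (median 1.07), including Tnfrsf1b (1.88 ± 0.09) and Csf2rb (1.41 ± 0.10).

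The 12 largest positive differences, picked by size, were of genes with low levels in 3 groups, a shape that such a pick favours. Klk1b11, a kallikrein, stood at 0.182 and 0.152 CPM in MAflox EtOH, 1.14 and 1.01 in MAflox 4-OHT, 0.152 and 0.234 in MATIP EtOH, and 208 and 207 in MATIP 4-OHT (7.32 ± 0.58). Prl2c5 of the prolactin family (7.61 ± 1.18) had the same shape. Both families have near-identical copies, so their single values are uncertain. Nr4a3, a nuclear receptor induced early by signals, reached 27.4 and 26.1 CPM (7.02 ± 0.95). Fam181b and Gprc5b differed by 6.43 ± 0.92 and 6.40 ± 0.66, and Gprc5b, with 4 counts over both MATIP EtOH libraries, by 10.3 without replicate 2 of that group.

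Ahnak, a giant scaffold protein, stood at 7.4 and 10.2 CPM in MAflox EtOH, 15.0 and 11.9 in MAflox 4-OHT, 6.74 and 9.14 in MATIP EtOH, and 632 and 561 in MATIP 4-OHT (5.61 ± 0.19). Plxna1, a semaphorin receptor, reached 355 and 320 CPM from 7.35 and 8.39 (5.31 ± 0.20), and Colec12, a scavenger receptor, 353 and 379 from 2.04 and 2.85 (5.22 ± 0.17). Adgrl2, an adhesion receptor, rose to 97.3 and 88.3 CPM (6.23 ± 0.19), and Col5a3, a collagen chain, to 74.3 and 72.7 (5.91 ± 0.45). In all 5 the 2 MATIP 4-OHT libraries lay far above the other 6, which describes the choice of the largest positive differences.

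Neutrophil granule genes rose in both lines and, in most called members, further in MAflox. All 24 tested members of the secondary and tertiary granule list rose in each line, and the difference was negative in 14 and positive in 5 (medians 5.90, 4.98 and −1.17). The summed level of the list still ended higher in MATIP. It went from 652 to 676 CPM in EtOH to 23700 to 23900 with 4-OHT in MAflox, and from 1130 to 1200 to 36000 to 37100 in MATIP. Camp, cathelicidin of secondary granules, stood at 4.29 and 4.14 CPM in MAflox EtOH, 1720 and 1770 in MAflox 4-OHT, 19.1 and 20.8 in MATIP EtOH, and 162 and 189 in MATIP 4-OHT. MATIP was the higher line in EtOH and the lower one in 4-OHT, and the difference of −5.56 ± 0.12 was the most negative among the named genes (edgeR adjusted p = 1.09e-16). Ngp, another granule protein, went from 40.4 and 38.1 to 11200 and 10600 CPM in MAflox and from 184 and 246 to 5970 and 6390 in MATIP (−3.28 ± 0.13). Mmp8, neutrophil collagenase, went the other way within the same list. It rose from 25.1 and 24.6 to 115 and 115 CPM in MAflox and from 29.2 and 27.5 to 1930 and 1930 in MATIP (3.88 ± 0.08).

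Related neutrophil genes followed Camp more often than Mmp8. Of 15 stefin A and S100 genes, all of which rose in both lines, 10 were lower and 4 higher, with a median of −0.98 that was −0.37 with the length and GC trend removed. S100a8 went from 70.4 and 64.6 to 14200 and 14900 CPM in MAflox and from 242 and 273 to 9130 and 10100 in MATIP, so its difference of −2.53 ± 0.10 came with a higher start in MATIP. S100a4 and S100a6 were lower in MATIP EtOH, at 7.57 and 6.72 and at 7.66 and 8.39 CPM, and differed by 2.99 ± 0.12 and 2.23 ± 0.12. Stefin A genes have near-identical copies. Of 8 NADPH oxidase subunits, which make superoxide, 6 were lower and 0 higher by edgeR (DESeq2 also called 6 and 0, and 0 were higher at an unadjusted p under 0.05, medians 1.56, 0.75 and −0.48), and Ncf4 stood at 82.1 and 80.7, then 364 and 373 CPM in MAflox, and 105 and 108, then 173 and 182 in MATIP (−1.44 ± 0.08).

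Other large negative differences were led by genes that rose far in MAflox. Fcnb, a ficolin, went from 1.91 and 1.6 to 175 and 195 CPM in MAflox and from 3.68 and 6.95 to 14.6 and 14.7 in MATIP (−5.30 ± 0.25). Ceacam10 (−4.97 ± 0.34), Itgb2l (−3.94 ± 0.14) and Mogat2, an acyltransferase (−4.59 ± 0.14), had the same order. Smim6 (−5.25 ± 0.48) rose in MAflox from 0.772 and 1.37 to 26.2 and 28.1 CPM and held 8 to 26 counts in each MATIP library. Fbxo17 rose by 4.23 ± 0.23 in MAflox and fell by 0.99 ± 0.18 in MATIP on the log2 scale. St8sia5, a sialyltransferase, rose by 0.58 ± 0.17 in MAflox and fell by 3.30 ± 0.15 in MATIP. Both stood higher in MATIP EtOH than in MAflox EtOH. Slco4c1, a transporter, differed by −4.69 ± 0.46. For Ankrd22 and Cxcl3 no fold is given in MAflox, since their EtOH libraries held 2 and 0 counts. Ankrd22 reached 39.1 and 39.7 CPM in MAflox and 20.4 and 24.3 in MATIP, and Cxcl3 15.8 and 16.1 against 102 and 101. The difference called for Cxcl3 was lost without any of 3 EtOH libraries (adjusted p of 0.0544, 0.0788 and 0.111 in edgeR). Eif2s3y, also in this group by the rule, is the Y-linked gene counted at 0 to 2 in MATIP libraries.

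**Figure D5:**
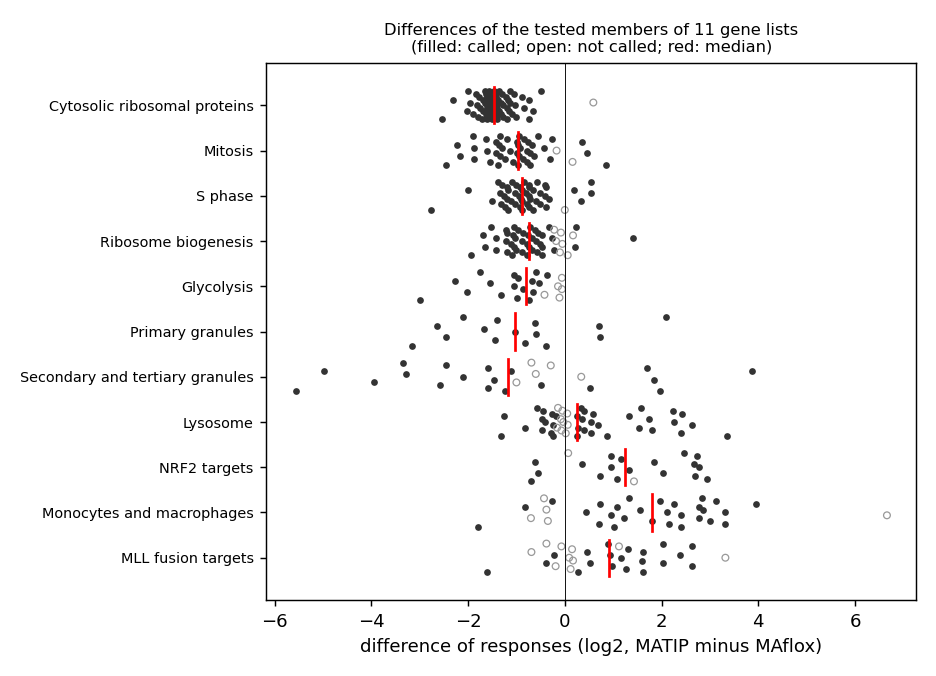
Difference of responses (log2, MATIP minus MAflox) of each tested member of 11 gene lists, filled where called and open where not, with a red line at the median. Ribosomal proteins lie almost wholly below 0, the NRF2 and macrophage lists mostly above it, and the lysosome and granule lists on both sides.

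Myeloid transcription factors went both ways. Of 35 tested members 18 were higher and 9 lower (medians 0.61, 0.61 and 0.36, the last being 0.22 with the length and GC trend removed). Gfi1, a repressor needed for neutrophil fate, stood at 159 and 164 CPM in MAflox EtOH, 298 and 307 in MAflox 4-OHT, 262 and 271 in MATIP EtOH, and 124 and 124 in MATIP 4-OHT (−2.01 ± 0.08). Fli1, an ETS factor, turned in the same direction (0.61 ± 0.06 and −0.86 ± 0.06). Egr1 (3.52) and Klf4 (2.07), zinc-finger factors of the monocyte lineage named after their values were seen, lay on the other side.

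Subunits of the Tip60 complex did not move as 1. Of 20 tested members 11 were lower and 5 higher (medians −0.18, −0.64 and −0.63), Kat5 itself being among the lower ones. With the length and GC trend removed, 12 were lower and 6 higher. Ruvbl2, an AAA ATPase of the complex, stood at 297 and 307 CPM in MAflox EtOH, 213 and 213 in MAflox 4-OHT, 263 and 261 in MATIP EtOH, and 45.0 and 47.1 in MATIP 4-OHT (−2.01 ± 0.08). H2afv, an H2A.Z gene, rose by 1.22 ± 0.07 in MAflox and fell by 0.36 ± 0.07 in MATIP, and Morf4l2 differed by −1.19 ± 0.08. The large subunits Trrap (1.99) and Ep400 (1.6), named after their values were seen, fell in MAflox and had positive differences. No values with the length and GC trend removed are given for Trrap and Ep400.

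Counts of other chromatin genes differed when the length and GC trend was removed. Of 21 MLL and AF10 cofactors 8 were higher and 6 lower (median 0.12), against 6 and 8 (−0.09) with the length and GC trend removed. Dpy30, a core subunit of MLL complexes, had −1.78 ± 0.08, or −1.12 with the trend removed. Mllt6 had 2.16 ± 0.18, or 1.44 with the trend removed, and Aff1 1.25 ± 0.08, or 0.59. Dot1l, the H3K79 methyltransferase that AF10 recruits, fell from 65.1 and 65.5 to 25.3 and 24.5 CPM in MAflox and from 80.9 and 80.6 to 59.9 and 53.3 in MATIP. Its difference of 0.88 ± 0.10 was 0.22 with the trend removed, and was not called with the replicate block added to that fit (edgeR adjusted p = 0.0501). Of 17 other histone acetyltransferases and partners 8 were higher and 3 lower, 4 turning upward, or 6, 5 and 1 with the trend removed. Kat6a (1.38 ± 0.14), Ncoa3 (1.17 ± 0.11) and Ncoa1 (1.12 ± 0.12) then had 0.73, 0.59 and 0.58, while Hat1, a newly made histone's acetyltransferase, went from −0.98 ± 0.08 to −0.62.

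Of 28 Polycomb genes 15 were lower and 5 higher (median −0.45), with Ezh2, the H3K27 methyltransferase, at −0.97 ± 0.08 and Phc1 at 3.56 ± 0.36. Of 10 DNMT, TET and IDH genes 5 were higher and 4 lower, or 2 and 5 with the trend removed, where the median went from 0.27 to −0.24. Dnmt3a, a de novo DNA methyltransferase, fell in MAflox from 47.9 and 51.4 to 30.7 and 28.6 CPM and rose in MATIP from 25.6 and 30.4 to 98.8 and 89.9 (2.49 ± 0.12), and it shares 133 exon bases with its antisense gene Dnmt3aos. With the trend removed its difference was 1.7, and 0 in place of 1 gene of this list turned from a fall to a rise. Of 12 MYC network genes 6 were higher and 4 lower, or 3 and 6 with the trend removed (median 0.46 and −0.18), with Mxd1, a MYC antagonist, at 865 and 881 CPM in MATIP 4-OHT and 253 and 250 in MAflox 4-OHT (1.74 ± 0.14).

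Sterol, p53 and survival genes had no common direction. Sterol synthesis split 11 higher and 8 lower of 24 (median 0.12), with Hmgcs1 at 1.3 ± 0.09 and Mvd at −1.15 ± 0.09. p53 targets split 11 and 9 of 32 (62.5% called), with a median of −0.07 that was 0.06 with upper quartile factors. Among them Perp (3.72 ± 0.27) rose from 0.326 and 0.201 CPM in MATIP, and Xpc, a damage sensor, rose by 0.34 ± 0.06 in MAflox and fell by 1.20 ± 0.06 in MATIP. BCL2 family genes split 5 and 4 of 15 (median 0.32, 60.0% called). Bcl2l11, the pro-death protein BIM, went from 10.9 and 13.1 to 19.0 and 19.4 CPM in MAflox and from 13.3 and 16.3 to 186 and 174 in MATIP (2.92 ± 0.14).

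Markers of other cell types were counted beside these groups. Of 20 erythroid and megakaryocyte markers 11 were tested, 2 higher and 3 lower in the difference, and their summed levels were 351 to 367 CPM in MAflox EtOH, 393 to 431 in MAflox 4-OHT, 456 to 498 in MATIP EtOH and 593 to 633 in MATIP 4-OHT. The count of 2 higher was 1 when any of 6 single libraries was left out (both MATIP 4-OHT, both MAflox EtOH, MATIP EtOH replicate 1 or MAflox 4-OHT replicate 1), with the replicate block, or with the length and GC trend removed. Summed mast and basophil markers (12 of 20 tested, 3 higher and 2 lower) came to 260 to 266 CPM in MATIP 4-OHT from 128 to 139, against 149 to 151 and then 157 to 162 in MAflox. Eosinophil markers (11 of 12 tested, 1 higher and 2 lower) went from 68.2 to 74.6 up to 458 to 519 CPM in MAflox, and from 53.3 to 60.9 up to 93.1 to 101 in MATIP. The count of 1 higher was 0 without MATIP EtOH replicate 2 or MAflox EtOH replicate 1. Siglecf, a receptor of eosinophils, differed by −2.20 ± 0.24.

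Dendritic markers (14 of 18 tested, 7 higher and 1 lower) stood at 152 to 156 and then 93.5 to 101 CPM in MAflox, and at 126 to 130 and then 266 to 279 in MATIP, led by Itgax, CD11c, at 90.5 and 86.6 CPM in MATIP 4-OHT against 3.93 and 3.06 in MAflox 4-OHT. Lymphoid markers (7 of 22 tested, 1 higher and 3 lower) stood at 57.6 to 163 CPM in all libraries, with Cd3e, Cd8a, Pax5 and Rag1 at 0. Stromal markers (14 of 20 tested, 5 higher and 0 lower by edgeR, 4 and 0 by DESeq2, 6 and 0 at an unadjusted p under 0.05, and 2 higher without MAflox EtOH replicate 2) reached 586 to 594 CPM in MATIP 4-OHT, with Dcn and Lum at 0 in all libraries. The part of any such cells in the results above was not tested.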

How the data were processed

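RNA-seq gene counts of 8 libraries were compared, 2 in each of 4 groups named by line and treatment in the labels. The authors deposited raw counts of reads for each gene symbol, whole numbers with no normalization. The submitters' processing notes name mm10, featureCounts 1.6.4, HISAT2 2.1.0, DESeq2 and Trimmomatic 0.38.0. What annotation, strandedness and rule for multiply mapped reads were used is not given in the sources used here. Tables of log2 fold changes and p-values per line, also deposited by the authors, were used only to count how many turned genes they call in opposite directions.

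Counts were fitted with edgeR 4.0.16 (R 4.3.3): TMM scaling, genes kept by filterByExpr over groups (count 10, total 15), the quasi-likelihood test over all 8 libraries with no block, and Benjamini-Hochberg adjustment over 13722 genes at 0.05. CPM values are scaled by the TMM factors. Totals of 41101309 to 57312490 counts per library limit the precision of genes with few counts, and PCR reads are not independent molecules. The difference was the contrast of the 2 responses. Alternatives were DESeq2 1.42.0, RLE and upper quartile factors, no filter and a stricter one, an offset for transcript length and GC content (GENCODE M21), a replicate block, and leaving out each library. The fit was also run on simulated counts in which few genes changed, in MATIP 4-OHT alone. Far more genes were called here, so that run does not test the scaling under such broad change.

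Named genes were Kat5, the 12 largest called differences each way and the 12 strongest turns each way, without predicted genes and with at least 5 CPM on average and 4-OHT to EtOH changes that did not overlap between the lines, and per list the 4 top called genes by p, or the top gene where no call was made, which gave 244 different genes. The comparison and the 53 gene lists were chosen with earlier results of these data known. Of the 244 genes, 82 share exon bases with another gene, 66 of them on the opposite strand, and their values are uncertain to that extent. Replicate numbers did not pair the libraries. Promoters are RefSeq's on GRCm38.p6. Some genes of these lists are not reported here.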

Additional observations from a re-analysis of the deposited data

Results flagged for a closer look

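The genes below were picked because their responses went in opposite directions in every library of the 2 lines, with a called difference. They are the 12 strongest turns each way, so their differences describe the choice. Values are differences of log2 responses, MATIP minus MAflox.

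Among genes that rose in MAflox and fell in MATIP, Ces1d had −3.79, Fam69b −3.78, Slc28a2 −3.24, Gatm −3.23, Prss57 −3.16 and Tmem119 −3.05. Cth had −2.81, Prelid2 −2.80, Ankrd37 −2.77, Cdkn3 −2.69, Elane −2.45 and Ndrg2 −2.41.

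Among genes that fell in MAflox and rose in MATIP, Atp13a2 and Il6st both had 3.47, Plec 3.34, Lamc1 3.24, Ano8 3.12 and Sdc1 3.06. Itsn1 had 2.95, Dst 2.83, Dock10 2.78, Zeb2 2.63, Dync2h1 2.37 and Notch2 2.22.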

How the results depend on the processing

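The called differences numbered 8491 in the fit reported, 8062 with DESeq2, 8425 with RLE factors, 8390 with upper quartile factors, 8527 with no filter, 7523 with a stricter filter and 8239 with the length and GC offset. Genes shared with the fit reported, in the same direction, were 7835, 8096, 7782, 8295, 7108 and 7181. Upper quartile factors gave 2527 in place of 1608 genes lower in MATIP EtOH. Asking for at least 1.5-fold in both responses left 161 and 262 of the 949 and 708 turned genes, and at least 2-fold left 39 and 106.

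Leaving out each library in turn gave 3446 to 3833 higher and 4135 to 4490 lower differences. The MATIP response gave 4801 to 5444 higher and 4749 to 5335 lower genes, and the MAflox response 4088 to 4633 and 3978 to 4475. Turned genes numbered 582 to 725 from a fall to a rise and 781 to 953 from a rise to a fall. MATIP against MAflox gave 4719 to 5305 higher and 4715 to 5247 lower genes in 4-OHT, and 2028 to 2461 and 1104 to 1827 in EtOH.

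Deviations of same-numbered libraries from their group means had correlations of −0.0023 in MAflox and −0.0391 in MATIP. With 2 libraries a group, such values cannot tell whether the numbers mark pairs, and the fit reported does not pair them. A fit with the replicate block called 8155 differences, 8125 of them shared, and 7934 with the block and the length and GC offset.

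The named genes were picked from the fit reported by size or p, so most were likely to keep their calls. Over all genes, 7181 of 8491 calls and 1102 of 1657 turns were shared with the length and GC offset. Of the values of named genes under these settings, 4669 kept their call and direction, 25 lost the call and 0 reversed. Those that lost it include Ccl22 (0.26, adjusted p = 0.795, without MAflox EtOH replicate 2), Kdr (1.77, adjusted p = 0.895, without the same library), Ear2, Gp9 and Sparc, all with few counts in a group. With these depths a gene near the count minimum can lose its call with 1 library, and 2 libraries a group limit every estimate of spread.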
